A study of Homo sapiens with 4 samples.

Results

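The genes described are 10 transcription factors of the Krüppel-like and GATA families: KLF2, KLF4, KLF5, KLF6, KLF9, KLF10, GATA2, GATA3, GATA4 and GATA6. They were taken by symbol from a table of 23577 usable genes, and all 10 were present. Their levels were compared across the leiomyosarcoma cell lines SKUT1, SKN, SKLMS1 and RKN, each untreated, cultured in DMEM with 10% serum and represented by 1 poly(A) RNA-seq library. Leiomyosarcoma is a cancer with features of smooth muscle. The labels give no tissue of origin, passage or culture number, so each line stands for a single culture and no difference between lines has a replicate check. Levels are in FPKM, which corrects the fragments of a gene for transcript length and library size. Differences were taken between log2(FPKM + 1) values, a scale that compresses those of low genes, and no test or p-value was computed.

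Krüppel-like factors bind GC-rich and CACCC sequences through zinc fingers at the carboxyl end of the protein, a recognition they share with the SP factors. GATA factors bind the sequence that names them and work with FOG (ZFPM) and LMO2-LDB cofactors. In vascular smooth muscle, KLF4 is known as a repressor of contractile genes, KLF5 as a factor of the proliferative state and GATA6 as a factor of the quiescent state, and in endothelium KLF2 and KLF4 are induced by flow through the kinase ERK5 and the MEF2 factors.

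Library depth was estimated from the steps of the lowest values as 24500000 reads in SKUT1, 25000000 in SKN, 30800000 in SKLMS1 and 33300000 in RKN, where a single read on 2 kb of transcript corresponds to an FPKM of 0.0167 to 0.0227. An exact 0 can be a failed estimate in such a table: RPS28, which encodes a ribosomal protein, was listed at 0 in SKUT1 and at 146 in RKN. The labelled lineage was uneven in its markers. The summed FPKM of 6 smooth muscle markers was 6235 in SKUT1, 52.1 in SKN, 820.1 in SKLMS1 and 171 in RKN, and the late markers MYH11 and DES were at most 1.15 and 1.10 in any line. Rescaling every column to 1 sum (TPM) moved the median difference of all genes, line minus the mean of the others, to -0.31 in SKUT1, -0.10 in SKN, 0.04 in SKLMS1 and 0.24 in RKN, from values between -0.06 and -0.03.

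KLF2, KLF4, KLF9 and GATA6 had their highest level in SKUT1. SKN held the highest level of KLF5, KLF6 and GATA3, RKN that of GATA2 and GATA4, and SKLMS1 that of KLF10. Of the 13713 genes that reached an FPKM of 1 in any line, 30.8% were highest in SKUT1, 21.1% in SKN, 28.4% in RKN and 19.7% in SKLMS1. No member was lowest in SKUT1 alone, as 27.9% of all genes were. RKN was lowest for KLF5, KLF9, KLF10 and GATA6 (background 26.7%), SKLMS1 for KLF2, KLF6 and GATA3 (20.8%) and SKN for KLF4 and GATA2 (20.9%). The lowest lines of GATA3 and GATA2 are nominal, since SKLMS1 lay 0.02 under RKN for GATA3 on the log2 scale, and GATA2 was 0.906 in SKN and 0.909 in SKLMS1. At 4 of 10, the share of members led by SKUT1 was not far from its background.

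**Figure D1:**
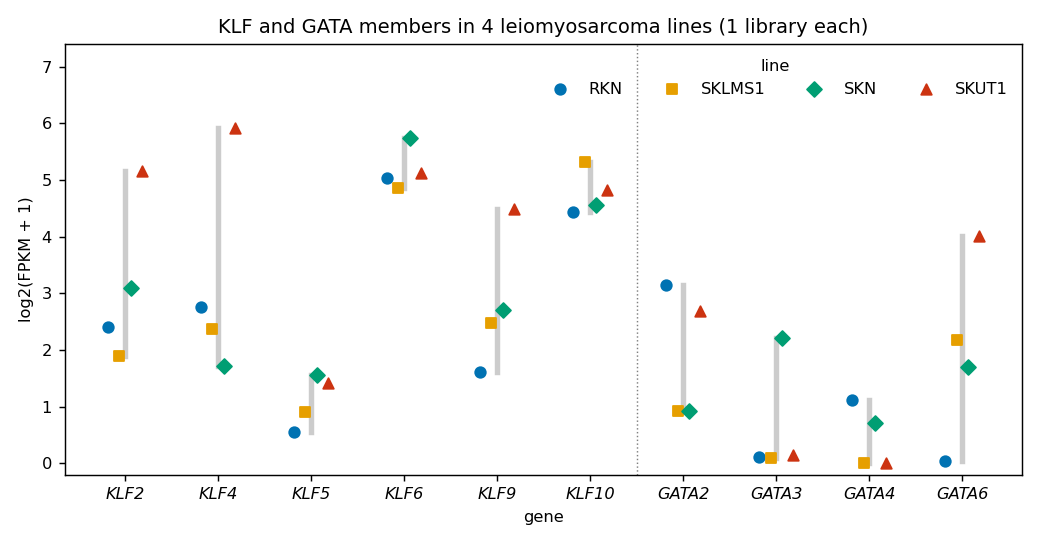
Level of each of the 10 members in the 4 lines, as log2(FPKM + 1) on the vertical axis; each point is 1 library and the grey bar spans the lines. SKUT1 stands above the other lines for KLF2, KLF4, KLF9 and GATA6, while KLF6 and KLF10 differ by less than 1 unit between any of the lines.

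Of the 10 members, 6 spanned at least 4-fold (2 on the log2 scale) between their highest and lowest line: KLF2, KLF4, KLF9, GATA2, GATA3 and GATA6. The background was 26.7% of the 13713 genes. All 10 passed the filter, but GATA3 passed through SKN alone and GATA4 through RKN alone, so for these the filter itself selects a difference. The next line was exceeded by 4-fold or more by 3 members: KLF2 and KLF4 in SKUT1, where the background was 4.06%, and GATA3 in SKN, where it was 1.34%. Over all lines the background of this call was 8.1%. No member lay 4-fold under the next line on the log2(FPKM + 1) scale, against 3.36% of all genes. GATA6 in RKN came nearest, at 0.0249 against 2.24 in SKN, a gap of 1.66 that this scale compresses.

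Set against the mean of the other 3 lines, 5 members stood 2-fold or more higher in SKUT1 (KLF2, KLF4, KLF9, GATA2 and GATA6; background 17.9%) and 0 lower (13.1%). In SKN GATA3 was higher (9.97%) and KLF4 and GATA2 lower (10.8%). In SKLMS1 0 members were higher (10.7%), and KLF2, KLF4 and GATA2 were lower (9.83%). In RKN GATA2 was higher (11.6%) and KLF9 and GATA6 lower (16.6%). For the gene lists described below, the same shares are the background of each line and direction.

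KLF4, a pluripotency factor and a brake on contractile genes in smooth muscle, had the widest range of the 10 members on the log2(FPKM + 1) scale. Its FPKM was 59.5 in SKUT1, whereas RKN had 5.81, SKLMS1 4.15 and SKN 2.28. SKUT1 exceeded RKN, the next line, by 3.15 on the log2 scale, past 8-fold. Below SKUT1, the lines followed each other in steps of under 2-fold. Ranked within each library, which needs no scaling between libraries, KLF4 stood above 87.9% of the 13713 genes in SKUT1, 42.2% in RKN, 34.4% in SKLMS1 and 25.4% in SKN. In bulk libraries, fewer expressing cells and less RNA per cell cannot be told apart.

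KLF2, a factor of endothelial and lymphocyte quiescence, had an FPKM of 34.9 in SKUT1, whereas SKN had 7.56, RKN 4.29 and SKLMS1 2.72. The lead of SKUT1 over SKN was 2.07 on the log2 scale, just past 4-fold, and became 1.93 after TPM rescaling and 1.90 after quantile normalization. The lower lines again lay in steps of under 2-fold, but in another order than for KLF4, since SKN came second for KLF2 and last for KLF4. The ratio of KLF2 to KLF4 was 3.31 in SKN, 0.738 in RKN, 0.655 in SKLMS1 and 0.586 in SKUT1, so KLF2 exceeded KLF4 in SKN only.

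The start regions of KLF2 and KLF4 are shown because SKUT1 led for both, with that of KLF6, which was even across the lines, beside them. Each is the RefSeq window from 250 bases before to 50 after the start in GRCh38.p14, a build that differs from the hg19 named for the expression values. Capitals mark matches to the GC box (GGGCGGG on either strand), bound by SP and KLF factors, and in KLF2 also the match to the MEF2 consensus. The windows lie at chr19:16324576-16324875 on the plus strand for KLF2, chr9:107489720-107490019 on the minus strand for KLF4 and chr10:3785160-3785459 on the minus strand for KLF6.
KLF2: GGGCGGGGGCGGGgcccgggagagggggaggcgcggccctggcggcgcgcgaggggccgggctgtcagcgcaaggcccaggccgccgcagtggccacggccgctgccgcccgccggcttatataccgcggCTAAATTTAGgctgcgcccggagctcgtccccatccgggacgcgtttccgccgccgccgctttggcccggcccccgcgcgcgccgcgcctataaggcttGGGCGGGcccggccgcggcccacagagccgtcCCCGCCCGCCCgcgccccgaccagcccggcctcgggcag
KLF4: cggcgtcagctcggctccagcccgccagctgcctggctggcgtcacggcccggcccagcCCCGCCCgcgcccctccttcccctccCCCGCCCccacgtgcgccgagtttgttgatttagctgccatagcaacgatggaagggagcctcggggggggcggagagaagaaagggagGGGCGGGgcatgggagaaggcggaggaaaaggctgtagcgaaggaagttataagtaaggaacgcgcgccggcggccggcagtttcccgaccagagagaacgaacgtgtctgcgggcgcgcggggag
KLF6: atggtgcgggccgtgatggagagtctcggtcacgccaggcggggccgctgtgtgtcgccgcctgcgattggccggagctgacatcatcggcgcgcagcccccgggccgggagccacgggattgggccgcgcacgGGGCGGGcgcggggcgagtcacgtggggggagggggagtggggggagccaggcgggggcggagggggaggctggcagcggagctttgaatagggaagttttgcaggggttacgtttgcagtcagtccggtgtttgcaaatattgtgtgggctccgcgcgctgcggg
GC boxes numbered 5 in KLF2, where 2 pairs overlap, 3 in KLF4 and 1 in KLF6. KLF5 and GATA2 had 1 each over 2 windows and GATA3 had 7 over 6 windows, and 33.1% of the 35116 windows in the table held at least 1. The MEF2 match in KLF2 lay 120 to 111 bases before the start and reads the same on both strands. The MEF2 consensus matched in 2.99% of all windows and in no window of the other members in the table. RefSeq windows were at hand for 8 of the 10 members. The windows of KLF9 and GATA6 held no match to any motif searched, and KLF5 and GATA3 each had 1 match to TATAAA (11.5% of all windows). No member's window held CCACACCC (3.28%), AGATAA (10.3%) or a CArG box, the site of serum response factor (1.29%), on either strand. A match describes letters in these windows and not a bound site.

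Of the kinases and MEF2 factors that act upstream of KLF2 and KLF4 in endothelium, the MEF2 factors and some of the kinases were highest in SKUT1. There 4 of 7 such genes were at least 2-fold above the mean of the other lines (background 17.9%) and 0 below (13.1%). The median of the 7 was 1.29 on the log2 scale, beside -0.03 for all genes. MEF2A had an FPKM of 31.7 in SKUT1, whereas SKLMS1 had 9.66, SKN 9.09 and RKN 5.72. MEF2D was 20.9 in SKUT1, with 9.91 in SKN, 7.34 in SKLMS1 and 4.16 in RKN. The kinase gene MAP3K3 was 22.9 in SKUT1 and at most 10.4 elsewhere, and MEF2C was 1.91 in SKUT1 and at most 0.547 elsewhere. MAPK7, the gene of ERK5 itself, was highest in RKN at 16.8, with 13.6 in SKUT1, and MAP2K5, the gene of its activating kinase, was highest in SKN at 9.58, with 8.0 in SKUT1. In RKN MEF2A and MEF2D were at least 2-fold below the other lines and 0 of the 7 above (median -0.66).

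Genes that KLF2 activates in endothelium and lymphocytes did not share an order. THBD, the thrombomodulin gene, was 9.75 in SKUT1, 9.97 in SKLMS1 and 0.209 in RKN, and listed at 0 in SKN. S1PR1, a receptor of lymphocyte exit, was 2.74 in SKUT1, 1.34 in SKN, 0.684 in SKLMS1 and 4.81 in RKN. NOS3, the endothelial nitric oxide synthase gene, was at most 0.0714 in any line. Endothelial markers were also uneven: TEK was 39.6 and ERG 7.07 in SKUT1, with at most 0.0195 and 0.0350 elsewhere, KDR was 4.91 in SKN, and PECAM1, CDH5 and VWF were at most 0.115, 0.0702 and 0.293 in any line. The 6 endothelial markers summed to 47.2 in SKUT1, 5.08 in SKN, 0.0904 in SKLMS1 and 0.0956 in RKN, and their part in the KLF2 level was not tested. The 6 blood cell markers summed to between 0.388 and 1.95, with PTPRC at most 0.213.

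Of 6 contractile genes that KLF4 is known to repress in smooth muscle, 5 were highest in SKUT1, the line with the most KLF4, and SMTN was highest in SKN at 45.6, with 44.1 in SKUT1. In SKUT1 4 of the 6 were at least 2-fold above the mean of the other lines: ACTA2, TAGLN, CNN1 and LMOD1 (background 17.9%). There 0 were below (13.1%), and the median was 3.72. ACTA2, TAGLN, CNN1 and MYH11 are also among the 6 smooth muscle markers summed above, so this list partly repeats them. TAGLN, which encodes an actin-binding protein, was 3816 in SKUT1, with 531 in SKLMS1, 45.5 in RKN and 5.82 in SKN. In SKN, the line with the least KLF4, the same 4 genes were at least 2-fold below the others (median -2.99, background 10.8%). RKN had more KLF4 than SKLMS1. Of the 6 genes, 3 were lower and 0 higher in RKN, while 3 were higher and 0 lower in SKLMS1. The part of KLF4 in these levels was not tested.

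KLF9, a factor induced by the glucocorticoid receptor, was 21.5 in SKUT1, with 5.54 in SKN, 4.56 in SKLMS1 and 2.04 in RKN. SKUT1 exceeded SKN by 1.78 on the log2 scale, short of 4-fold, while SKN and SKLMS1 lay 0.23 apart. The glucocorticoid receptor gene NR3C1 had the same highest and lowest line, with 61.8 in SKUT1, 21.5 in SKLMS1, 19.6 in SKN and 4.78 in RKN. The glucocorticoid response had 7 measured genes, with KLF9 and NR3C1 themselves among them, so its counts partly repeat the levels above. In SKUT1 4 were at least 2-fold higher, KLF9, NR3C1, TSC22D3 and DUSP1 (background 17.9%), and 0 lower (13.1%, median 1.64). In RKN the same 4 were lower (16.6%) and 2 others higher (11.6%, median -1.62). These 2 were FKBP5, which encodes a cochaperone of the receptor, at 19.4 in RKN, 3.54 in SKN, 1.83 in SKUT1 and 0.0272 in SKLMS1, and the kinase gene SGK1, at 113 in RKN, whereas SKLMS1 had 23.1, SKUT1 21.4 and SKN 9.35.

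KLF6 and KLF10 were the abundant and even members. KLF6, an injury-response factor that activates TGF-beta pathway genes, was 52.6 in SKN, 33.8 in SKUT1, 31.6 in RKN and 27.9 in SKLMS1. KLF10, a TGF-beta-inducible repressor, was 38.7 in SKLMS1, 27.4 in SKUT1, 22.7 in SKN and 20.6 in RKN. The range over the lines was 0.89 for KLF6 and 0.88 for KLF10 on the log2 scale, both under 2-fold. Within the libraries, KLF6 stood above 78.4% to 87.8% of genes and KLF10 above 72.6% to 83.8%.

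Genes downstream of these factors varied more than the factors. Of 6 genes known to be activated by KLF6, TGFBR1, ENG, CDKN1A and IGF1R exceeded the other lines by 2-fold or more in SKUT1 (median 1.63), and the same 4 were at least 2-fold lower in RKN (median -1.71), while KLF6 itself was 33.8 and 31.6 in these lines. CDKN1A, the gene of the cell cycle inhibitor p21, was 348 in SKUT1, with 12.8 in SKN, 9.94 in SKLMS1 and 5.92 in RKN. ENG, which encodes the TGF-beta co-receptor endoglin, was 566 in SKUT1, 71.6 in SKN, 10.8 in SKLMS1 and 0.109 in RKN. Among 8 early response genes of TGF-beta, KLF10 included, 4 were higher and 0 lower in SKUT1 (median 0.88), and 3 higher and 0 lower in SKLMS1 (median 0.81). In SKN 4 were lower and 0 higher (median -0.74), and in RKN 3 were lower and ID1 was higher (median -0.42). SMAD7, an inhibitory SMAD gene repressed by KLF10, was 38.7 in SKUT1, 14.5 in SKLMS1, 2.78 in SKN and 0.723 in RKN. KLF11, a close relative of KLF10, was 8.42 in SKLMS1, 6.54 in SKUT1, 3.85 in RKN and 2.33 in SKN, so SKLMS1 led for both.

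KLF5, the factor of proliferating smooth muscle and epithelial progenitors, was low throughout. It was 1.95 in SKN, 1.66 in SKUT1, 0.877 in SKLMS1 and 0.462 in RKN, and no neighbours in this order were 2-fold apart. The ratio of KLF4 to KLF5, which needs no scaling between libraries, was 35.8 in SKUT1, 12.6 in RKN, 4.73 in SKLMS1 and 1.17 in SKN. Of 5 measured KLF5 targets, 3 were lower in RKN, PDGFA and CCND1 among them, and 0 higher (median -1.63). After TPM rescaling 4 were lower there and 1 higher. The other lines did not follow the order of KLF5. SKLMS1 had the highest median at 0.54, with 2 targets higher and 1 lower. SKN, with the most KLF5, had 1 higher and 0 lower (median 0.32), and SKUT1 2 higher and 0 lower (median 0.31). CCND1, the cyclin D1 gene, was 537 in SKUT1, 111 in SKN, 39.8 in RKN and 31.9 in SKLMS1.

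The make-up of the KLF group differed between the lines. The 6 members summed to an FPKM of 179 in SKUT1, 92.7 in SKN, 78.9 in SKLMS1 and 64.8 in RKN. KLF4 held 33.3% of that sum in SKUT1, 8.96% in RKN, 5.26% in SKLMS1 and 2.46% in SKN. KLF2 held 19.5% in SKUT1 and at most 8.15% elsewhere, and KLF9 12.0% in SKUT1 and at most 5.98% elsewhere. KLF6 led in SKN with 56.8% and in RKN with 48.8%, KLF10 led in SKLMS1 with 49.0%, and KLF5 held between 0.712% and 2.11%. The FPKM of KLF4 was 1.76 times that of KLF6 in SKUT1 and at most 0.184 times in the other lines.

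**Figure D2:**
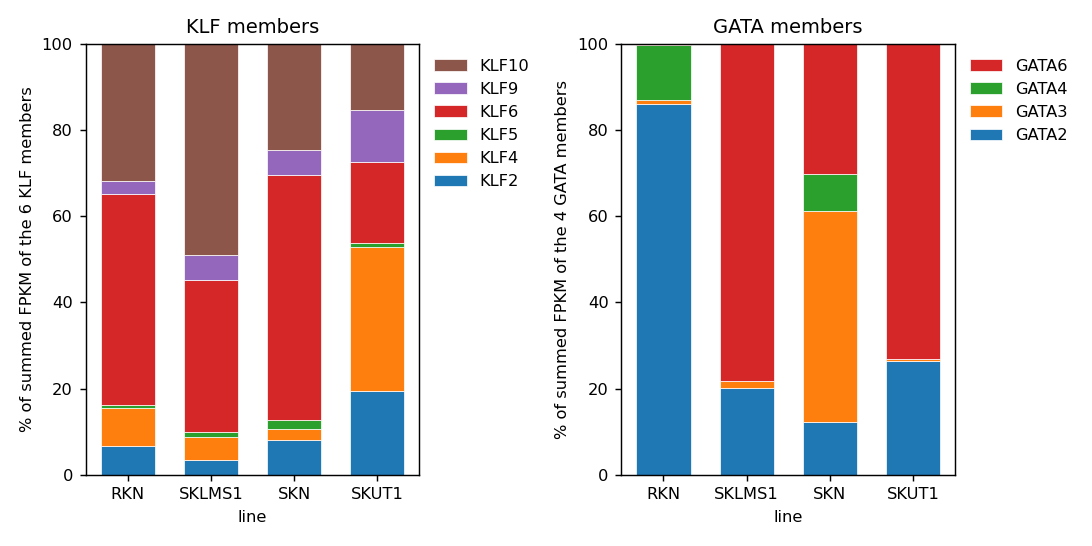
Share of each member in the summed FPKM of the 6 KLF members (left) and of the 4 GATA members (right), in percent, for 1 library per line. KLF4 leads in SKUT1 and KLF6 or KLF10 in the other lines, and the leading GATA member is GATA2 in RKN, GATA3 in SKN and GATA6 in SKLMS1 and SKUT1.

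Of the whole KLF family, 13 of 17 genes reached an FPKM of 1 in some line, and KLF1, KLF14, KLF15 and KLF17 did not. In SKUT1 6 of the 13 were at least 2-fold above the mean of the other lines and 0 below (median 0.52). Besides KLF2, KLF4 and KLF9 these were KLF3, KLF12 and KLF13. After TPM rescaling there were 4, and the family median relative to that of all genes was 0.63. In RKN KLF9, KLF12 and KLF13 were lower and 0 of the 13 higher (median -0.70). KLF13, a widely expressed repressor, was 31.8 in SKN, 22.0 in SKUT1, 6.39 in SKLMS1 and 4.91 in RKN. KLF12, a repressor that recruits CTBP, was 3.84 in SKUT1, 2.04 in SKN, 1.25 in SKLMS1 and 0.00277 in RKN.

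Few SP factors and partner proteins of the KLF group were called 2-fold from the other lines. Of 9 SP genes 4 reached an FPKM of 1, and SP1, SP2 and SP3 each spanned less than 2-fold, with SP1 between 12.1 and 14.9. SP4 was 3.80 in SKN and at most 1.46 elsewhere. Of 10 genes for corepressors, acetyltransferases and ubiquitin ligases of KLF proteins, 9 were within 2-fold of the mean of the others in every line. HDAC1, a histone deacetylase gene, was the exception at 135 in SKN, 73.7 in RKN, 51.7 in SKLMS1 and 27.8 in SKUT1. The calls cover only 9.83% to 17.9% of all genes per line and direction. The share of all genes uncalled in every line was not computed, so these genes are not shown to be unusually even.

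**Figure D3:**
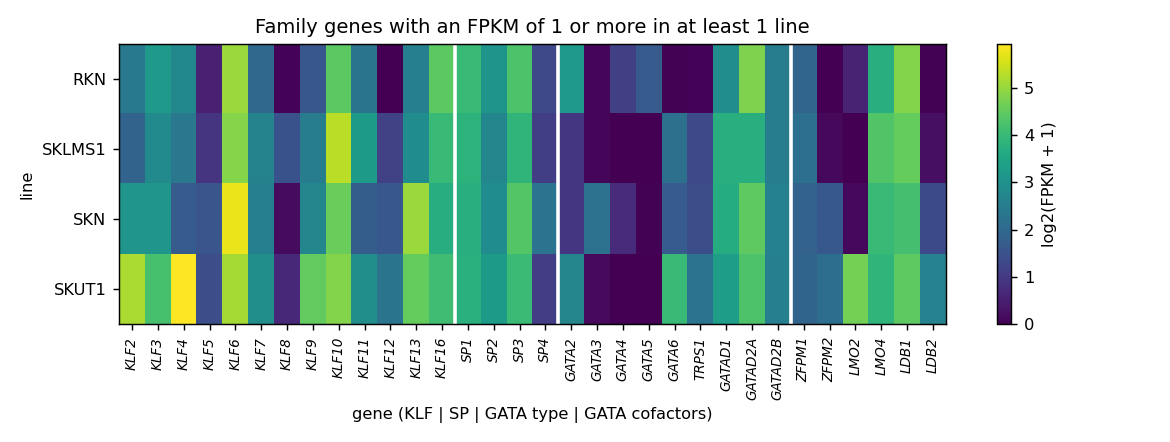
Level of each KLF, SP and GATA-type gene and GATA cofactor that reached an FPKM of 1 in any line, as log2(FPKM + 1) in colour, with lines as rows and genes as columns. The columns of SP1, SP2 and SP3 are nearly even down the rows, while those of KLF4, GATA6, LMO2 and KLF13 are not.

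The leading GATA factor was GATA6 in SKUT1 and SKLMS1, GATA3 in SKN and GATA2 in RKN. GATA6, a factor of endoderm, heart and differentiated smooth muscle, had an FPKM of 15.1 in SKUT1, whereas SKLMS1 had 3.52, SKN 2.24 and RKN 0.0249. The value in SKUT1 corresponded to about 1324 estimated reads and that in RKN to about 2.96. SKUT1 exceeded SKLMS1 by 1.84 on the log2 scale, SKLMS1 and SKN were less than 2-fold apart, and SKN exceeded RKN by 1.66. Its range of 3.98 came after that of KLF4 at 4.21, an order set by the pseudocount of 1: as a plain FPKM ratio of highest to lowest line, GATA6 spanned 607, GATA3 53.8 and KLF4 26.1.

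GATA2, a factor of blood and endothelial precursors, divided the lines into pairs. It was 7.89 in RKN and 5.48 in SKUT1, and 0.909 in SKLMS1 and 0.906 in SKN. SKUT1 exceeded SKLMS1 by 1.76 on the log2 scale, and the lines within each pair lay less than 2-fold apart. The excess over the mean of the other lines was 1.63 in RKN. In SKUT1 it was 1.02, and it fell short of 2-fold after TPM rescaling (0.92) and quantile normalization (0.96). The ratio of GATA6 to GATA2 was 2.76 in SKUT1, 3.87 in SKLMS1, 2.47 in SKN and 0.00316 in RKN, so only RKN had more GATA2 than GATA6.

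GATA3, a factor of T cells, trophoblast and luminal epithelium, was 3.66 in SKN, with 0.114 in SKUT1, 0.0828 in RKN and 0.0680 in SKLMS1. SKN exceeded SKUT1 by 2.06 on the log2 scale, which compresses an FPKM ratio of 32.1. The low values correspond to about 6.12 to 8.17 estimated reads, so their order is not resolved at this depth. The antisense gene GATA3-AS1 was 0.112 in SKN and listed at 0 in the other lines. Since the strand setting of the processing is not stated, reads from any stretch that the pair shares may not be told apart.

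GATA4, a cardiac and gonadal factor, was the lowest of the 4 GATA members at its peak. It was 1.17 in RKN and 0.639 in SKN and listed at 0 in SKLMS1 and SKUT1, so no fold is given against those lines. GATA5, a relative outside the 10 members, was 2.23 in RKN and 0.0165 in SKN and also listed at 0 in SKLMS1 and SKUT1. As shares of the summed FPKM of the 4 members, GATA6 held 73.0% in SKUT1 and 78.3% in SKLMS1, GATA3 held 49.1% in SKN with GATA6 at 30.1%, and GATA2 held 86.1% in RKN.

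Of 6 measured GATA cofactors, LMO2, LDB2 and ZFPM2 were at least 2-fold above the mean of the other lines in SKUT1 (background 17.9%). In this line, which had the most GATA6, 0 of the 6 were below (13.1%, median 0.76). LMO2, which encodes a bridging protein of GATA complexes in blood cells, was 24.8 in SKUT1, 0.491 in RKN and 0.0850 in SKN, and listed at 0 in SKLMS1. ZFPM2 (FOG2), a partner of GATA4 and GATA6, was 3.44 in SKUT1, 2.10 in SKN, 0.0835 in SKLMS1 and 0.00693 in RKN. The other 3 cofactors spanned less than 2-fold. TRPS1, which encodes a repressor with a GATA-type finger, had the highest and lowest lines of GATA6, at 3.75 in SKUT1, 1.67 in SKN, 1.48 in SKLMS1 and 0.0424 in RKN.

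Known targets of the GATA factors followed them only in part. DAB2, an adaptor gene that GATA6 activates in endoderm, was 97.3 in SKUT1, 56.1 in SKLMS1, 5.41 in SKN and 0.364 in RKN, the order of the lines for GATA6. Of the other 4 measured targets of GATA4 and GATA6, NPPB, a natriuretic peptide gene, was the only one at least 2-fold from the others in any line, at 2.74 in SKUT1. Of 5 measured GATA2 targets, 4 were at least 2-fold lower (background 16.6%) and 0 higher in RKN (median -1.76), the line with the most GATA2. In SKUT1, second for GATA2, EDN1, LMO2 and TEK were higher (17.9%) and VCAM1 lower (median 1.07). LMO2 and TEK were called lower in every line but SKUT1, where they were 24.8 and 39.6. The part of GATA2 in these levels was not tested. EDN1, the endothelin gene, was 28.0 in SKLMS1, whereas SKUT1 had 5.79 and SKN 0.166, and it was listed at 0 in RKN. Of 5 measured luminal and trophoblast partners of GATA3, KRT8, KRT18 and TFAP2C were higher and KRT19 and TFAP2A lower in SKN (median 2.78). TFAP2C was 28.9 in SKN, 9.26 in SKLMS1, 2.21 in RKN and 0.184 in SKUT1. SKLMS1, with little GATA3, had 4 of the 5 higher and 0 lower (median 1.68). The 6 epithelial markers, KRT8 and KRT18 among them, summed to 549 in SKN, 314 in SKLMS1, 196 in SKUT1 and 11.0 in RKN, with EPCAM at most 1.80 and CDH1 at most 1.20. In SKN nearly all of this was KRT8 at 265.0 and KRT18 at 283, which are also on the GATA3 list, while EPCAM at 0.208 and CLDN4 at 0.316 were lower there than in any other line. The median difference of the 5 measured markers was -0.45 in SKN and 0.52 in SKLMS1, and their part in the GATA3 level was not tested.

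Several KLF genes are early response genes to serum and stress, so that group was set beside them. Of 10 measured genes, FOS, FOSB, JUN and DUSP1 were higher and JUNB and ATF3 lower in SKN (median 0.87). Of the KLF members, KLF5 and KLF6 were highest in SKN, KLF4 was lowest there, and KLF2, KLF9 and KLF10 lay between. In SKUT1 3 were higher and 1 lower (median -0.04), and after TPM rescaling 2 were higher and 3 lower. FOS was 10.0 in SKN, with 2.93 in RKN, 2.66 in SKUT1 and 0.582 in SKLMS1.

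**Figure D4:**
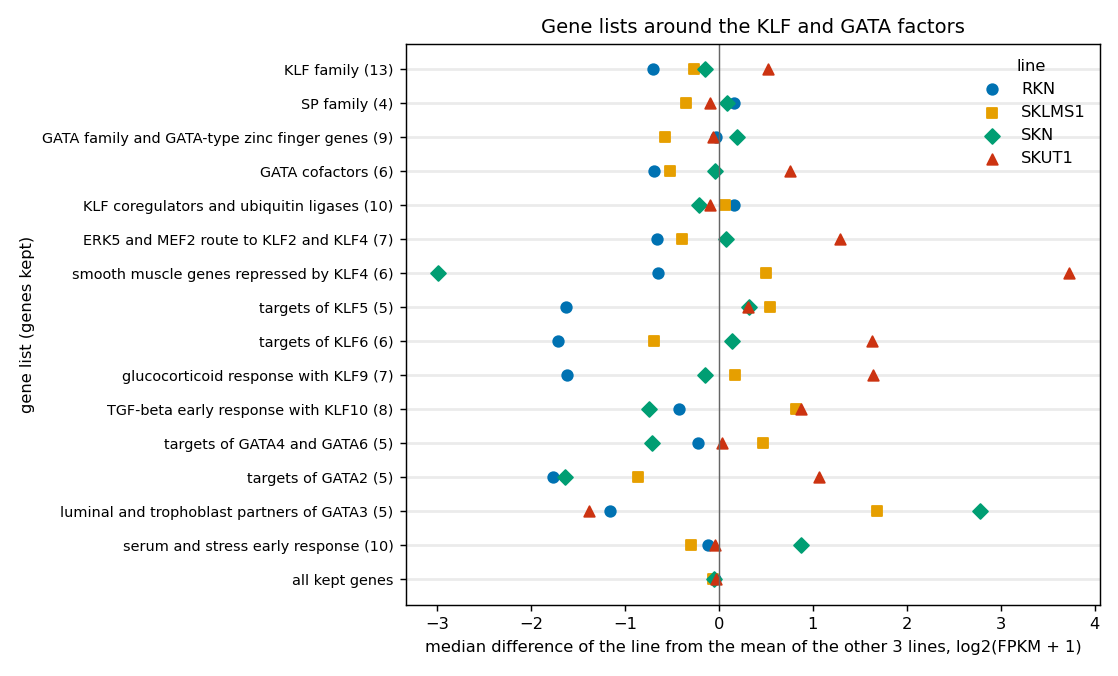
Median difference of each line from the mean of the other 3 lines for the 15 gene lists, cell type markers left out, with at least 4 measured genes, on the log2(FPKM + 1) scale, with all measured genes in the last row. The medians of all genes lie between -0.06 and -0.03, and SKUT1 has the highest median for 8 lists, among them the KLF family and the ERK5 and MEF2 route.

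Between single pairs of lines, KLF2, KLF4, KLF9 and GATA6 were at least 4-fold lower in RKN than in SKUT1 (background 10.2%). KLF2, KLF4 and GATA6 were lower in SKN than in SKUT1 (7.69%), and GATA3 was higher (4.4%). KLF2, KLF4 and KLF9 were lower in SKLMS1 than in SKUT1 (7.28%). RKN had a higher GATA2 (3.46%) and a lower GATA6 (6.33%) than SKLMS1, and a higher GATA2 (3.86%) and a lower GATA3 (5.78%) than SKN. GATA3 was lower in SKLMS1 than in SKN (3.6%), and no KLF member was 4-fold apart between RKN, SKLMS1 and SKN. These calls are on the log2(FPKM + 1) scale, on which low genes can fall short. GATA6 was 0.0249 in RKN and 2.24 in SKN, a difference of 1.66. Between SKLMS1 and SKUT1, GATA2 differed by 1.76 and GATA6 by 1.84. KLF5 in SKN was 4.23 times that in RKN as plain FPKM, yet differed by 1.01. The comparisons share libraries and are not independent of each other.

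For each of the 6 members with a range of 4-fold or more, the most alike genes were those whose largest difference from it over the 4 lines was smallest among 13703 others. NBL1, which encodes a secreted BMP antagonist, matched KLF4 within 0.17 on the log2 scale, at 53.0 in SKUT1, 5.46 in RKN, 4.73 in SKLMS1 and 2.14 in SKN. PNMA2 and HOXC6 came next for KLF4, within 0.44 and 0.56. For KLF2 they were DOCK5, the neurotrophin gene BDNF and DNAJB9, within 0.44, 0.45 and 0.50. For KLF9 they included NDFIP2 and RDH10, within 0.19 and 0.34. For GATA2 they were HIST1H4H, GAREML and THSD1, within 0.30, 0.32 and 0.37, and for GATA6 LIMCH1, C7orf10 and LMBRD2, within 0.49, 0.53 and 0.62. For GATA3 they were GDA, LOC152225 and SERPIND1, all within 0.13, and 48 genes lay within 0.5 of it, compared with 1 to 10 for the other 5 members. GATA3 was at most 0.114 outside SKN, a level at which the log2(FPKM + 1) scale compresses differences. Any gene near 0 in those lines and similar in SKN therefore matches it closely. Likeness over 4 values is a description of these libraries only.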

How the data were processed

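Poly(A) RNA of the 4 lines, 1 library each, was prepared with a TruSeq Stranded mRNA kit and sequenced as 75 bp single ends on a NextSeq 500, per the labels' protocols. The submitters' processing notes list STAR, Cufflinks and hg19 without versions. Annotation, strand setting and filters are not stated. The authors deposited 1 table of FPKM values per gene symbol.

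Of 23610 rows, 28 with symbols turned into dates and 5 with spreadsheet errors were left out. Column sums ranged from 446954 to 619584. Depth was estimated by finding the most frequent step of 1 read in low genes with a single GENCODE 29 transcript, assuming fragments of 200 bases. With the step fitted this way, 62.3% to 65.2% of low values came within 0.1 of whole reads. The annotation was not matched to the authors', so reads are estimates and no count test was run.

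Levels were compared as log2(FPKM + 1) over the 13713 genes reaching an FPKM of 1 in any line. Calls were 4-fold over the range, over the next line or between a pair, and 2-fold from the mean of the other lines. Members and lists were chosen with earlier results of these data known. Named genes are the members, genes of the KLF, SP and GATA families, up to 4 genes with the widest range per list and the 3 nearest genes of a member. Genes making up a count of 5 or fewer were also named, after their values were seen, as were MAPK7, MAP2K5, SMTN and CLDN4. A few genes that these rules would name are not reported here. With 1 library per line no test was possible. The code was tested on simulated data. Alternatives changed pseudocount, scaling, filter, fold rule, distance and the lines included. Python 3.11.15, numpy 2.4.6, pandas 2.3.3 and matplotlib 3.10.9 were used.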

Additional observations from a re-analysis of the deposited data

How the results depend on the processing

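No paired analysis was possible because each line has 1 library. Median-of-ratios scaling, quantile normalization and dropping the filter kept all 16 counts of members within 1.5 times. A pseudocount of 5 and an 8-fold rule each gave 3 members for the range and 1 over the next line, and a 2-fold rule gave 5 over the next line. Leaving out 1 line gave 3 to 6 for the range, with 3 without SKUT1, and 2 to 4 over the next line. Members 2-fold higher in RKN numbered 2 with a pseudocount of 0.1, TPM or the median of the other lines and 0 with a pseudocount of 5 (1 to 2 without 1 line), and those lower 5 and 1 with pseudocounts of 0.1 and 5 (2 to 5, with 5 without SKLMS1 and 4 without SKN). In SKLMS1 1 was higher with a pseudocount of 0.1 (0 to 1 without 1 line), and 5 and 1 were lower with pseudocounts of 0.1 and 5 (2 to 4). In SKN 3 were higher with a pseudocount of 0.1, and 0 with a pseudocount of 5 or a minimum FPKM of 5 (1 to 1 without 1 line), and 1 was lower with a pseudocount of 5 (1 to 2, with 1 without SKUT1). In SKUT1 2 were lower with a pseudocount of 0.1 (0 to 1 without 1 line), and 4 to 5 higher without 1 line. Members 4-fold apart numbered 0 for RKN and SKLMS1 with a pseudocount of 5 or the 8-fold rule, 0 for RKN and SKN under the same 2 settings and 1 with a minimum FPKM of 5, and 2 for RKN and SKUT1 with the 8-fold rule. They numbered 0 for SKLMS1 and SKN with a pseudocount of 5, a minimum FPKM of 5 or the 8-fold rule and 2 with a pseudocount of 0.1, 5 for SKLMS1 and SKUT1 with a pseudocount of 0.1, and 1 for SKN and SKUT1 with a pseudocount of 5 or the 8-fold rule. Over the whole family, the leading shares were 23.6% for KLF4 in SKUT1, 34.3% for KLF6 in SKN, 31.3% for KLF10 in SKLMS1, 29.6% for KLF6 in RKN, 49.0% for GATA3 in SKN and 69.2% for GATA2 in RKN. The lead of KLF4 in SKUT1 was 2.58 to 3.33 under every pseudocount and scaling tried. That of KLF2 was 1.67 with a pseudocount of 5, that of GATA3 in SKN 0.76 with a pseudocount of 5 and 4.13 with 0.1, and that of GATA6 in SKUT1 2.07 with a pseudocount of 0.1. Larger pseudocounts weigh low levels less, and where other settings moved a count the cause was not tested. With 1 library per line, the spread between cultures is unknown.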
